A study of Mus musculus with 15 samples.

Results

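The genes described here encode 32 subunits of SAGA and TIP60, the histone acetyltransferase (HAT) complexes that are built around the adaptor protein Trrap. They were taken by gene symbol from a list of subunits, 15 for SAGA and 17 for TIP60 (also called TIP60/EP400), out of 53801 genes in the count table. All 32 were found in the table and all passed the filter on low counts, with at least 342 counts in every library. Trrap is not among the 32, and it is the gene that was deleted.

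RNA was sequenced from adult neural stem cells (aNSCs), dividing cells from the brains of 2-month-old C57BL6/J-129sv mice that were kept in culture. Every mouse carried the Rosa26-CreERT2 transgene, a Cre recombinase expressed in all cell types that is active only with 4-hydroxytamoxifen (4-OHT), and at least 1 floxed Trrap allele. The 3 groups held 5 cultures each. Trrap Fl/+; Rosa26-CreERT2 cultures without treatment (Fl/+ untreated) and Trrap Fl/+; Rosa26-CreERT2 cultures with 4-OHT (Fl/+ 4-OHT) came from the same 5 mice, numbered 19, 24, 26, 35 and 36. Trrap Fl/Fl; Rosa26-CreERT2 cultures with 4-OHT (Fl/Fl 4-OHT) came from mice 27, 28, 29, 37 and 39. The Fl/+ 4-OHT controls can therefore lose 1 Trrap allele, and no group had an intact pair of unfloxed alleles or lacked the transgene. No untreated Fl/Fl cultures were analysed here, so the floxed genotype itself and the deletion cannot be told apart.

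SAGA and TIP60 are large co-activators that transcription factors bring to promoters and enhancers through Trrap, which has the fold of a kinase but no kinase activity. SAGA carries a HAT module, in which Kat2a (GCN5) or Kat2b (PCAF) acetylates histone H3, a structural core, and a deubiquitinase module, in which Usp22 removes ubiquitin from histone H2B. TIP60 carries the acetyltransferase Kat5, which acts on histones H4 and H2A, the ATPase Ep400, which exchanges histone H2A for the variant H2A.Z, and several proteins that read histone marks. Both complexes are known for roles in stem cell maintenance and in the response to DNA damage.

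The libraries held 25720034 to 32187097 assigned counts. Trrap was at 190.2 ± 14.3 TMM-scaled CPM (counts relative to library size) in Fl/+ untreated, 164 ± 26.5 CPM in Fl/+ 4-OHT and 104 ± 24.2 CPM in Fl/Fl 4-OHT cultures (mean ± SD, n = 5 each), and the culture of Fl/Fl mouse 29, at 142 CPM, lay within the range of the Fl/+ 4-OHT cultures. The log2 fold change of Trrap between Fl/Fl 4-OHT and Fl/+ 4-OHT cultures was -0.64 (edgeR, SE 0.160 and adjusted p = 0.0115). Between Fl/+ 4-OHT and Fl/+ untreated cultures it was -0.21 (edgeR adjusted p = 0.234). Counts over the whole gene do not show how much of the floxed sequence was deleted. The culture of Fl/Fl mouse 39, labelled female, had 9 Xist counts and 1556 counts of the Y-linked Ddx3y. The 4-OHT culture of mouse 36, labelled male, held 2117 Xist counts beside its Y-linked counts, and its untreated culture held 160. Neural stem cell markers were present in all libraries (10 of 10 genes at a median of at least 1 CPM), with sums of 7175 to 10376 CPM in Fl/+ untreated, 7521 to 9637 CPM in Fl/+ 4-OHT and 5780 to 9912 CPM in Fl/Fl 4-OHT cultures, and Fl/Fl mice 27, 28 and 29 lay below every Fl/+ 4-OHT culture. These sums join genes that differed in direction, since the means of Fabp7 (3620, 2936 and 1906 CPM in the same order of groups), Sox2 (399.9, 297 and 234 CPM) and Hes5 (73.5, 20.1 and 9.90 CPM) were lowest in Fl/Fl 4-OHT cultures, whereas that of Vim (2554, 3573 and 3460 CPM) was lowest in Fl/+ untreated cultures. Of 6 microglial genes 0 reached 1 CPM, and of 6 endothelial genes 2 did, Flt1 and Kdr, with sums of 13.3 to 63.8 CPM over all libraries. The summed level of 8 oligodendrocyte markers was 218 to 726 CPM in Fl/+ untreated, 572 to 1148 CPM in Fl/+ 4-OHT and 702 to 2883 CPM in Fl/Fl 4-OHT cultures, the last value in mouse 37, which also had the highest sum of 7 astrocyte markers (6522 CPM against 3139 to 3776 CPM in the other Fl/Fl cultures). The summed level of 10 neuronal markers was 875 to 1159 CPM in Fl/+ untreated, 876 to 1048 CPM in Fl/+ 4-OHT and 645 to 859 CPM in Fl/Fl 4-OHT cultures, so that every Fl/Fl culture lay below every Fl/+ culture. Most of this sum was Map2 (mean 798 CPM in Fl/+ 4-OHT and 685 CPM in Fl/Fl 4-OHT cultures). In the same order, Dcx was at 44.5 and 7.75 CPM and Tubb3 at 27.0 and 13.1 CPM. Syp, at 25.8 and 38.0 CPM, went the other way, as did Nefl, Nefm and Stmn2 by little. The part of these marker levels in the results below was not tested. Results are given also without mouse 37, and without mouse 39 and both cultures of mouse 36. In RNA from whole cultures, fewer cells that express a gene and less of its RNA per cell cannot be told apart.

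To show the control regions of members that moved in opposite directions, stretches upstream of a RefSeq transcription start (GRCm38.p6) are printed for Morf4l2, which had the largest fall after Trrap deletion among members with a RefSeq window, and for Supt7l and Taf6l, which had the largest rises. Each stretch is the longest piece of the 250 bases before the start that no annotated exon covers. For Morf4l2 and Supt7l that start lies inside the annotated gene, which begins at chrX:136743690 and chr5:31527807 on the minus strand. Their stretches are therefore not the sequence before the outermost start. Capitals mark the GC box GGGCGG, the core of the site bound by the transcription factor Sp1, and the E box CACGTG, searched on both strands.
Morf4l2, minus strand, chrX:136741662-136741823: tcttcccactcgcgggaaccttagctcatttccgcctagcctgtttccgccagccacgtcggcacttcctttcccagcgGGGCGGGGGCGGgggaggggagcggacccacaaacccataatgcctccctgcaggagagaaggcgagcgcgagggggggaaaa
Supt7l, minus strand, chr5:31526774-31526994: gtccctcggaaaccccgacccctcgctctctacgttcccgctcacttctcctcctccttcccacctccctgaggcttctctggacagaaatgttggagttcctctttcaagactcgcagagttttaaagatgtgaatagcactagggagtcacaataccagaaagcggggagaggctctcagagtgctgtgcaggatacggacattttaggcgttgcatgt
Taf6l, minus strand, chr19:8786418-8786566: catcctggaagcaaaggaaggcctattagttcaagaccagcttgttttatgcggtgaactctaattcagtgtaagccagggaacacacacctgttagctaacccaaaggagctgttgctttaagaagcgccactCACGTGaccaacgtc
The Morf4l2 stretch held 2 GC boxes side by side, which share no base, the Taf6l stretch held 1 E box, and the Supt7l stretch held neither motif. With exon bases included, the 250 bases before the same start held 1 GC box for Taf6l and 1 E box for Morf4l2 as well, and 2 of the 4 listed starts of Morf4l2 had no GC box in that span, so the motifs shown depend on the stretch and the start. RefSeq windows, which run from 250 bases before to 50 bases after a start, were found for 26 of the 32 members (36 windows), and no window was listed for Tada1, Vps72, Eny2, Brd8, Usp22 and Epc1. A GC box lay in 24 of the 36 windows (66.7%), against 35.7% of the 32851 windows of all genes. An E box lay in 5 of the 36 (13.9%), against 7.15% of all windows. By member, a GC box was found for 3 of 7 members that rose after Trrap deletion, 3 of 3 that fell and had a window, and 13 of 16 that were not called and had a window. Several members have more than 1 window and these can overlap, so the windows are not independent. All 32 members are expressed here, whereas the windows of all genes were not limited to expressed genes, so the shares are not like for like.

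The level of each subunit gene before treatment was compared per length, as TPM, a measure of transcript abundance from counts and the summed length of annotated exons. In Fl/+ untreated cultures the 32 members spanned a 15.1-fold range of mean TPM, with a median of 36.5 TPM. Yeats4, a reader of acetylated histones in TIP60, was at 234 ± 27.6 TPM (SD, n = 5), followed by Usp22 at 188 ± 16.3 TPM, Morf4l2 at 156 ± 19.7 TPM and the ATPase Ruvbl2 at 153 ± 24.6 TPM. At the other end were the nucleosome-binding reader Mbtd1 at 20.1 ± 1.45 TPM, Kat2b at 20.02 ± 1.70 TPM, the core subunit Supt3 at 18.3 ± 2.41 TPM, Morf4l1 at 16.3 ± 1.27 TPM and Atxn7, which anchors the deubiquitinase module to SAGA, at 15.5 ± 0.93 TPM. Of 31 neighbouring pairs in this order, only 2 did not overlap between libraries, namely Ruvbl2 above Kat2a and Eny2 above Brd8. The order within most of the list was therefore within the spread of the 5 cultures.

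Partners that are thought to act together in fixed amounts differed in RNA level. Ruvbl1 and Ruvbl2, which form a joint ring of ATPases, were at 26.2 ± 5.17 and 153 ± 24.6 TPM. Of the alternative SAGA acetyltransferases, Kat2a was at 109 ± 4.81 TPM and Kat2b at 20.02 ± 1.70 TPM, and the libraries of each such pair did not overlap. Exon lengths include all annotated transcripts, so TPM understates a gene whose long forms are little used. Counts hold uniquely mapped reads only, so a gene with copies elsewhere, such as Kat2b with its processed pseudogene, can be understated as well.

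**Figure D1:**
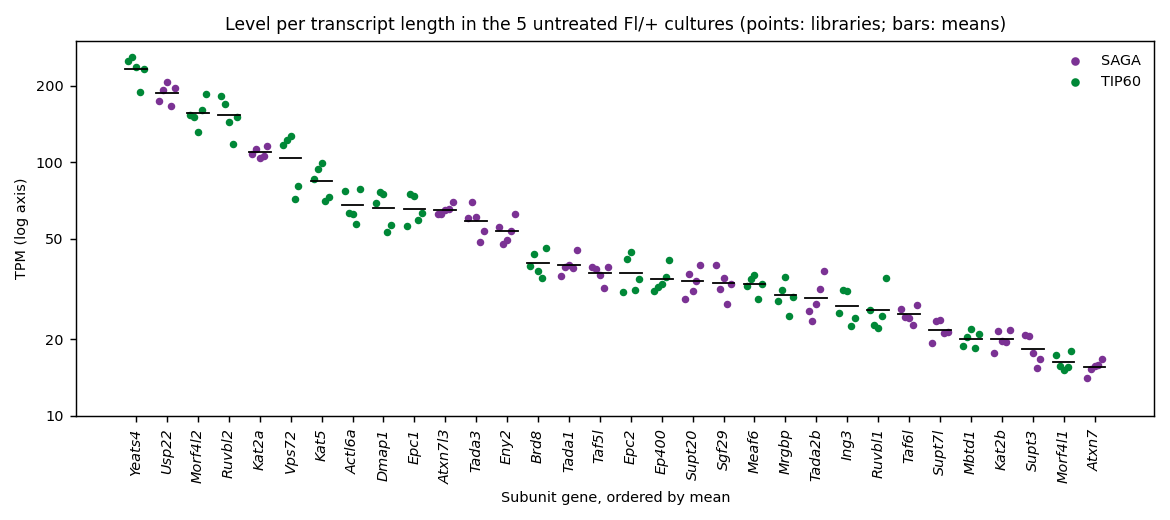
Level of each of the 32 subunit genes in the 5 Fl/+ untreated cultures, in TPM on a log axis, with genes ordered by their mean. Points are libraries, black bars are means, and colours separate SAGA from TIP60 members. Yeats4, Usp22, Morf4l2 and Ruvbl2 lie above 118 TPM in every library, and Atxn7 lies lowest on average.

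The comparison of Fl/Fl 4-OHT with Fl/+ 4-OHT cultures addressed how the partners of Trrap are expressed when Trrap is deleted. Of the 32 members, 13 passed edgeR's quasi-likelihood test (adjusted p below 0.05), 7 higher and 6 lower in Fl/Fl cultures. This is 40.6% of the members, against 31.7% of the 15036 genes tested, of which 16.8% were higher and 15.0% lower. The median log2 fold change of the members was -0.06, beside 0.02 for all genes tested. The largest changes were falls in the deubiquitinase Usp22 and in Morf4l2, to 0.554-fold and 0.570-fold. No member rose by more than 1.31-fold. Of the 13, 9 (6 falls and 3 rises) were called under each of the 18 alternatives tried. The other 4, namely Kat2b, Meaf6, Dmap1 and Mrgbp, were lost under some.

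**Figure D2:**
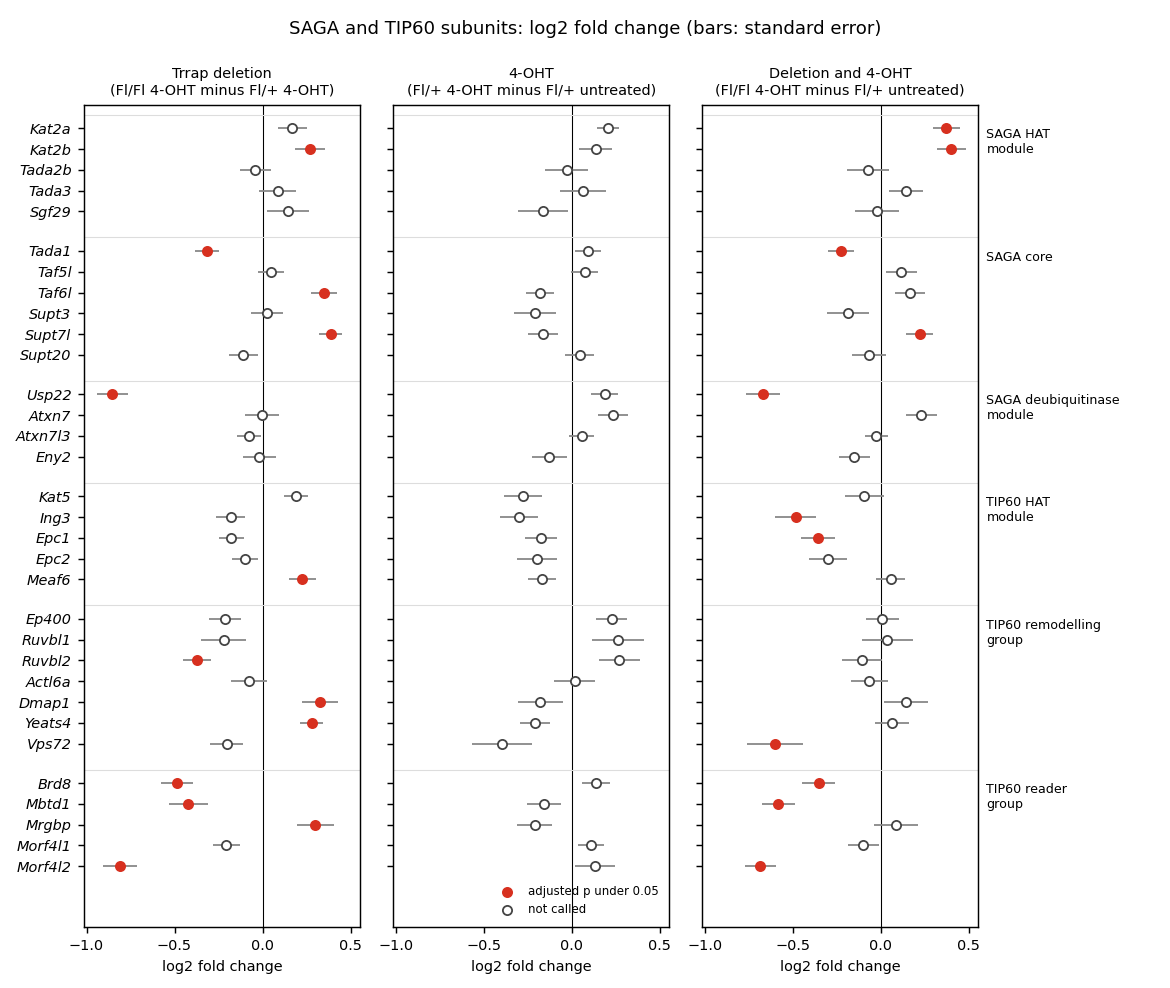
Log2 fold change of the 32 subunit genes in the 3 comparisons, grouped by module. Bars are standard errors from edgeR, and filled points have an adjusted p under 0.05. After Trrap deletion the falls in Usp22 and Morf4l2 stand farthest from 0, and with 4-OHT alone no member is called. The first comparison shares its Fl/+ 4-OHT cultures with that of 4-OHT alone and its Fl/Fl 4-OHT cultures with that of both together, and the other shared group is Fl/+ untreated, between 4-OHT alone and both together.

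The change in the SAGA deubiquitinase module was in its enzyme. Usp22 (ENSMUSG00000042506, GRCm38 chr11:61151785-61175055, minus strand) was at 142, 157, 156, 198 and 158 CPM in Fl/Fl cultures of mice 27, 28, 29, 37 and 39, and at 316, 267, 301, 305 and 288 CPM in Fl/+ 4-OHT cultures of mice 19, 24, 26, 35 and 36. Every Fl/Fl culture lay below every Fl/+ culture, and mouse 37 was the highest of the Fl/Fl group. The log2 fold change was -0.85 (edgeR, SE 0.0897 and adjusted p = 0.00013), and -0.95 without mouse 37. In Fl/+ untreated cultures Usp22 was at 240.3 to 289 CPM, also above all Fl/Fl cultures.

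The other 3 members of the module were not called. Atxn7, the anchor, had a log2 fold change of -0.0015 with a 95% interval of -0.19 to 0.19. Atxn7l3, which with Eny2 activates Usp22, had -0.08 (95% interval -0.21 to 0.05), and Eny2, which also serves in mRNA export, had -0.02 (95% interval -0.20 to 0.16). These intervals are normal approximations from the estimate and its SE, so they are somewhat narrower than the quasi-likelihood test implies. They exclude a fall of the size seen for Usp22.

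The structural core of SAGA moved in both directions, with 2 of 6 members higher and 1 lower. Supt7l (ENSMUSG00000053134, chr5:31514564-31527807, minus strand), a histone-fold subunit, was at 52.9, 49.7, 49.1, 48.9 and 49.9 CPM in Fl/Fl cultures (mice in the order given above) and at 39.0, 37.3, 42.5, 36.5 and 38.1 CPM in Fl/+ 4-OHT cultures. The groups did not overlap, and the log2 fold change was 0.39 (edgeR, SE 0.0646 and adjusted p = 0.0014). Untreated Fl/+ cultures, at 39.8 to 47.5 CPM, lay below all Fl/Fl cultures as well.

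Taf6l (ENSMUSG00000003680, chr19:8774487-8786417, minus strand), which takes the place of a TFIID subunit in SAGA, was at 40.7, 37.4, 39.8, 36.3 and 44.2 CPM in Fl/Fl and 30.6, 33.7, 29.3, 31.8 and 31.9 CPM in Fl/+ 4-OHT cultures. The groups did not overlap and the log2 fold change was 0.35 (edgeR, SE 0.0758 and adjusted p = 0.00564). Untreated cultures, at 33.6 to 38.9 CPM, overlapped with the Fl/Fl group.

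Tada1, a further histone-fold core subunit, fell to 36.3 to 40.6 CPM in Fl/Fl from 45.3 to 52.5 CPM in Fl/+ 4-OHT cultures, with no overlap (edgeR estimate -0.32 on the log2 scale with SE 0.0671, adjusted p = 0.00513). Taf5l, Supt3 and Supt20 were not called, with log2 fold changes of 0.05, 0.03 and -0.11, and Supt20 has an annotated processed pseudogene that could share its reads.

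In the HAT module of SAGA 1 of 5 members was called. Kat2b rose from 25.6 to 33.8 CPM in Fl/+ 4-OHT to 33.6 to 39.5 CPM in Fl/Fl cultures, with a small overlap between the groups (edgeR estimate 0.27 on the log2 scale with SE 0.0828, adjusted p = 0.029). This call was lost on leaving out any of Fl/+ 19, 24, 26 or 35 or Fl/Fl 28, 29, 37 or 39 (log2 fold change 0.20 to 0.27, adjusted p = 0.0511 to 0.0739 in edgeR). Kat2b has an annotated processed pseudogene, and reads that map to both places were not counted. Kat2a had a log2 fold change of 0.17 (95% interval 0.01 to 0.33, adjusted p = 0.129 in edgeR). The adaptors Tada2b and Tada3 and the reader of methylated histone H3, Sgf29, were at -0.04, 0.09 and 0.14 and were not called.

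In TIP60, Morf4l1, Morf4l2, Mrgbp, Brd8 and Mbtd1 were counted as the reader group, in which 3 of 5 members were lower and 1 was higher. The group median was -0.42 on the log2 scale. The name is a working one, since not all 5 read histone marks themselves (Mrgbp, for one, is a binding partner). Yeats4 and Ing3, which do read histone marks, were placed in the remodelling group and the HAT module. The modules were not tested against each other. Morf4l2 (ENSMUSG00000031422, chrX:136732942-136743690, minus strand) and its paralog Morf4l1 (MRG15), a reader of methylated histone H3, bind the same site in the complex. Morf4l2 was at 78.8, 85.7, 80.6, 93.6 and 90.03 CPM in Fl/Fl and at 162, 137, 125, 156 and 181 CPM in Fl/+ 4-OHT cultures. All Fl/Fl cultures lay below all Fl/+ 4-OHT and all Fl/+ untreated cultures, the latter at 118 to 155 CPM. The log2 fold change was -0.81 (edgeR, SE 0.0961 and adjusted p = 0.000245).

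Morf4l2 is X-linked, and the Fl/Fl group held 1 culture with a female pattern of Xist and Y-linked counts against 2 in the Fl/+ 4-OHT group. Without mouse 39 and mouse 36 the log2 fold change of Morf4l2 was -0.77 (adjusted p = 0.0019 in edgeR), and without mouse 37 it was -0.86. Neither setting evens out the cultures with a female pattern between the groups, so the part of sex was not tested by them.

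Brd8 (ENSMUSG00000003778), a bromodomain protein that binds acetylated histones, was at 97.9, 97.005, 105, 76.3 and 91.5 CPM in Fl/Fl and at 135, 140.0, 117, 129 and 141 CPM in Fl/+ 4-OHT cultures. The groups did not overlap, mouse 37 was the lowest, and the log2 fold change was -0.49 (edgeR, SE 0.0917 and adjusted p = 0.0028). Mbtd1 (ENSMUSG00000059474, chr11:93885852-93946985, plus strand), which reads methylated histone H4 and contacts Epc1, was at 50.8, 57.5, 57.7, 42.4 and 54.3 CPM in Fl/Fl and at 82.6, 61.8, 62.5, 69.5 and 79.7 CPM in Fl/+ 4-OHT cultures. Here too the groups did not overlap, although mice 24 and 26 of the Fl/+ 4-OHT group came close to the Fl/Fl group (edgeR estimate -0.42 on the log2 scale with SE 0.110, adjusted p = 0.014).

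Mrgbp (ENSMUSG00000027569, chr2:180581304-180586304, plus strand), which binds Morf4l1 and Morf4l2, went the other way, at 34.3, 27.8, 35.7, 25.3 and 32.7 CPM in Fl/Fl and 27.4, 25.6, 25.4, 24.98 and 24.6 CPM in Fl/+ 4-OHT cultures. Fl/Fl mouse 37 lay within the Fl/+ range and the other 4 Fl/Fl cultures lay above it (edgeR estimate 0.30 on the log2 scale with SE 0.105, adjusted p = 0.0479). The call was lost on leaving out any of Fl/+ 19, 24, 26, 35 or 36 or Fl/Fl 27, 29 or 39 (log2 fold change 0.23 to 0.31, adjusted p = 0.0696 to 0.117 in edgeR).

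In the remodelling group of TIP60, which exchanges histone variants, 2 of 7 members were higher and 1 was lower. Ruvbl2 (ENSMUSG00000003868, chr7:45421760-45438096, minus strand) was at 114, 125, 118, 106 and 117 CPM in Fl/Fl and at 144, 174, 157, 144 and 139 CPM in Fl/+ 4-OHT cultures. The groups did not overlap (edgeR estimate -0.37 on the log2 scale with SE 0.0788, adjusted p = 0.00502), but the untreated cultures spanned 101 to 155 CPM and covered the whole Fl/Fl range. Its ring partner Ruvbl1 had -0.22 (adjusted p = 0.209 in edgeR).

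Yeats4 (ENSMUSG00000020171, chr10:117215221-117224507, minus strand) was at 101, 102, 96.9, 84.4 and 104 CPM in Fl/Fl and at 84.6, 81.2, 79.5, 79.9 and 81.6 CPM in Fl/+ 4-OHT cultures. Only Fl/Fl mouse 37 overlapped with the Fl/+ 4-OHT cultures (edgeR estimate 0.28 on the log2 scale with SE 0.0669, adjusted p = 0.00921).

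Dmap1 (ENSMUSG00000009640, chr4:117674681-117682273, minus strand), which also binds a DNA methyltransferase, was at 61.6, 54.5, 55.8, 47.6 and 50.8 CPM in Fl/Fl and at 41.1, 47.6, 51.1, 39.8 and 38.3 CPM in Fl/+ 4-OHT cultures. The groups overlapped, and mice 24 and 26 were the highest of the Fl/+ group (edgeR estimate 0.33 on the log2 scale with SE 0.103, adjusted p = 0.0333). The call was lost on leaving out any of Fl/+ 19, 35 or 36 or Fl/Fl 27, 28 or 29 (log2 fold change 0.26 to 0.31, adjusted p = 0.0704 to 0.0878 in edgeR).

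The ATPase Ep400 had a log2 fold change of -0.21 (SE 0.0887, adjusted p = 0.0877 in edgeR). It passed only without Fl/+ mouse 26 or without Fl/Fl mouse 28 (-0.29 to -0.26, adjusted p = 0.0289 to 0.048 in edgeR). The actin-related protein Actl6a was at -0.08 and Vps72, a chaperone of H2A.Z, at -0.20, and neither was called. Ruvbl1, Ruvbl2, Actl6a, Dmap1, Yeats4 and Vps72 also belong to other remodelling complexes.

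In the HAT module of TIP60 1 of 5 members was called. Meaf6, a small subunit that several acetyltransferase complexes share, rose from 41.0 to 47.0 CPM in Fl/+ 4-OHT to 44.3 to 53.4 CPM in Fl/Fl cultures (edgeR estimate 0.23 on the log2 scale with SE 0.0757, adjusted p = 0.0404). The call was lost on leaving out any of Fl/+ 24, 35 or 36 or Fl/Fl 27, 28, 29 or 39 (log2 fold change 0.19 to 0.22, adjusted p = 0.0686 to 0.106 in edgeR). The acetyltransferase Kat5 itself had 0.19 (SE 0.0682, adjusted p = 0.0526 in edgeR). Without Fl/+ mouse 26 or Fl/Fl mouse 37 it had 0.21, with an adjusted p of 0.0352 to 0.0429 in edgeR.

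The scaffold subunits Epc1 and Epc2 had -0.18 and -0.10, and Ing3, which reads methylated histone H3, had -0.18, and none of these was called. Without Fl/Fl mouse 29 Epc1 passed, at -0.23 (adjusted p = 0.0352 in edgeR), and DESeq2, which called 16 members and 32.1% of all genes it tested, called Epc1 and Ing3 as well.

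Without mouse 39 and mouse 36, 10 members were called, 3 higher and 7 lower, and 9 of these were among the 13, while 23.2% of all genes tested were called. Without mouse 37, 13 were called, and 12 were among the 13, beside 29.2% of all genes tested. Oligodendrocyte and astrocyte marker sums were highest in mouse 37, and Usp22 and Morf4l2 were lower than in the Fl/+ 4-OHT cultures without that mouse as well.

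**Figure D3:**
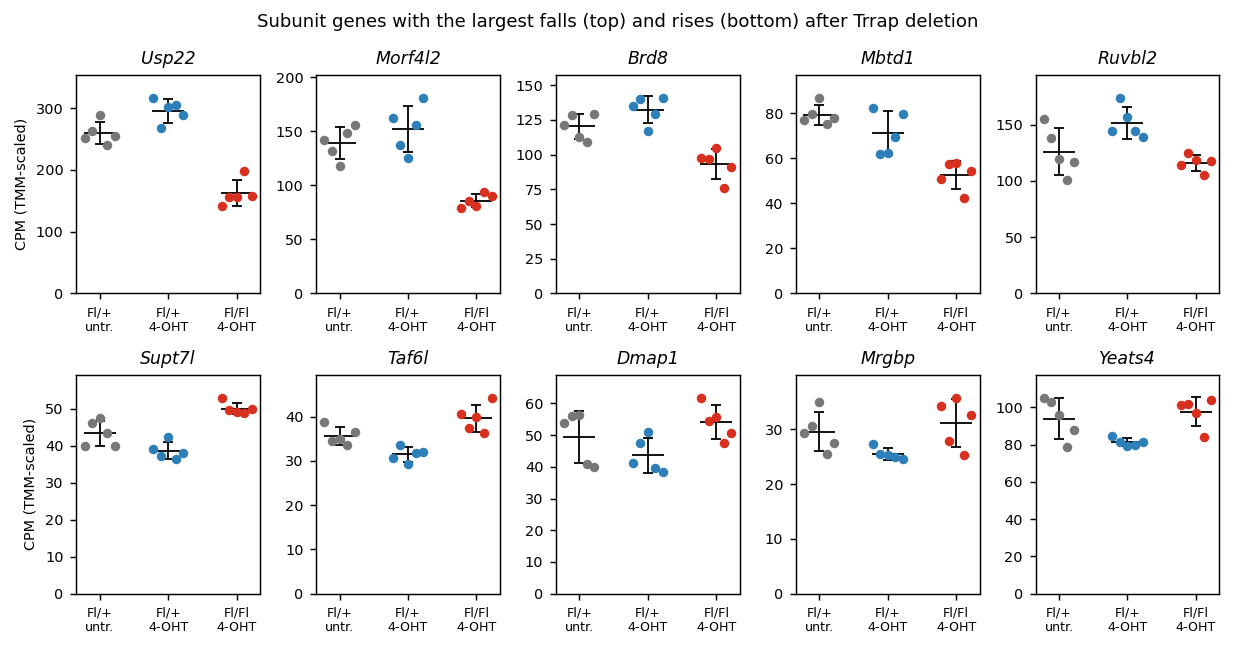
TMM-scaled CPM of the 5 members with the largest falls (top row) and the 5 with the largest rises (bottom row) after Trrap deletion, in the 3 groups of 5 cultures. Points are libraries in the order of mouse numbers, bars are means with SD, and each axis starts at 0. Usp22 and Morf4l2 show the widest gap between Fl/Fl and Fl/+ 4-OHT cultures, and the 5 rises are smaller.

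Other genes that encode subunits of these complexes or of the related ATAC and SRCAP complexes were drawn from a list of 22, of which 21 could be tested. After Trrap deletion 2 were higher and 4 lower, which is 28.6% of the 21 and near the 31.7% of all genes tested. The largest rise was that of Atxn7l1, a paralog of Atxn7, at 11.2, 7.96, 9.28, 9.71 and 9.35 CPM in Fl/Fl and 5.85, 5.32, 6.32, 7.08 and 5.05 CPM in Fl/+ 4-OHT cultures, with no overlap (edgeR estimate 0.70 on the log2 scale with SE 0.139, adjusted p = 0.00376). The largest fall was that of Actb, which encodes the actin of TIP60 and of the cytoskeleton, at 1076, 905, 969, 1232 and 1342 CPM in Fl/Fl and 1866, 1912, 2210.4, 1852 and 1652 CPM in Fl/+ 4-OHT cultures, with no overlap (edgeR estimate -0.77 on the log2 scale with SE 0.123, adjusted p = 0.00111). Taf9b, a paralog of a TFIID and SAGA subunit, was at 29.6 to 39.0 CPM in Fl/Fl, 16.9 to 33.1 CPM in Fl/+ 4-OHT and 25.2 to 56.0 CPM in Fl/+ untreated cultures. It was higher after Trrap deletion (edgeR estimate 0.51, adjusted p = 0.043), but at -0.14 against Fl/+ untreated cultures (edgeR adjusted p = 0.679). Usp27x, a deubiquitinase that can use the same cofactors as Usp22, fell with Sf3b3 and Wdr5. Usp27x was at 5.61 to 6.64 CPM in Fl/Fl and 7.39 to 9.66 CPM in Fl/+ 4-OHT cultures (edgeR estimate -0.42 on the log2 scale with SE 0.127, adjusted p = 0.0285), and its relative Usp51 had -0.14 (adjusted p = 0.543 in edgeR).

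Exchange between paralogous subunits was examined as the log2 ratio of their counts within each library, which does not depend on scaling between libraries. Of 4 pairs in 3 comparisons (12 tests), only the ratio of Morf4l1 to Morf4l2 passed. It was -0.83, -1.12, -1.11, -1.20 and -0.93 in Fl/Fl cultures and -1.68, -1.48, -1.35, -1.78 and -1.86 in Fl/+ 4-OHT cultures, so that every Fl/Fl culture lay above every Fl/+ 4-OHT culture. The difference was 0.59 (exact two-sided permutation p = 0.00794, the smallest that 5 against 5 cultures allow, Benjamini-Hochberg adjusted p = 0.0476 over the 12 tests). Against Fl/+ untreated cultures, at -1.74 to -1.49, the difference was 0.58 with the same exact permutation p and adjusted p. Both tests use the same 5 Fl/Fl cultures, so the second is not a separate result. Each adjusted p also rests on the other, since both tests tie at the smallest p.

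Morf4l1 (ENSMUSG00000062270, chr9:90091665-90114774, minus strand) was at 44.4, 39.5, 37.4, 40.7 and 47.2 CPM in Fl/Fl and 50.5, 49.2, 48.9, 45.3 and 49.8 CPM in Fl/+ 4-OHT cultures. The groups overlapped through mouse 39 and mouse 35, and the log2 fold change of -0.21 (SE 0.0747) was not called (adjusted p = 0.0558 in edgeR). Without Fl/+ mouse 35 or without Fl/Fl mouse 39 it passed, at -0.25 and -0.26, and DESeq2 called it as well, at -0.22. The higher ratio thus went with a fall in Morf4l2 and no rise in Morf4l1.

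For Kat2a to Kat2b the ratio was 1.93 ± 0.23 in Fl/Fl and 2.04 ± 0.21 in Fl/+ 4-OHT cultures (SD, n = 5 each), for Epc1 to Epc2 it was 0.71 ± 0.09 and 0.79 ± 0.11, and for Ruvbl1 to Ruvbl2 it was -3.03 ± 0.20 and -3.18 ± 0.33. Adjusted p-values of these 3 pairs in the exact permutation tests were 0.738 to 0.96 over the 3 comparisons. Leaving out any of Fl/Fl 27, 28, 29 or 39 gave an adjusted p of 0.0952 for Morf4l1 to Morf4l2 in the exact permutation test, with differences of 0.54 to 0.61 and no overlap between the groups, and the other libraries left out gave 0.0476. With 4 against 5 cultures the p moves in coarse steps, so this says little about stability.

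**Figure D4:**
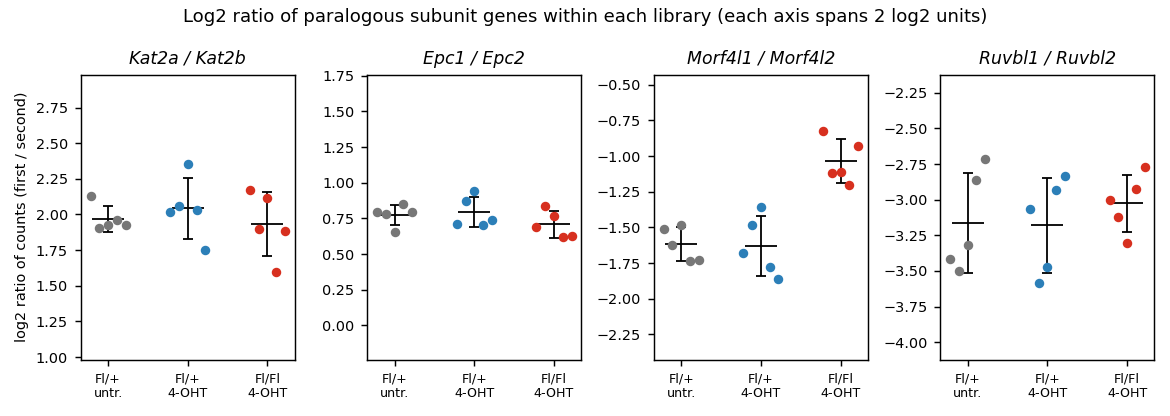
Log2 ratio of counts of 4 pairs of paralogous subunit genes in each library, by group. Points are libraries, bars are means with SD, and each axis spans the same number of log2 units without starting at 0. Only for Morf4l1 to Morf4l2 do the Fl/Fl cultures, at -1.20 to -0.83, lie apart from both Fl/+ groups.

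The comparison of Fl/+ 4-OHT with Fl/+ untreated cultures addressed what 4-OHT, Cre activity and the loss of 1 Trrap allele change. None of the 32 members was called in edgeR's test (0 higher and 0 lower), against 13.8% of 14821 genes tested, 7.34% higher and 6.45% lower. Before adjustment 10 members had a p below 0.05, and DESeq2 called 1, Kat2a. The median log2 fold change of the members was -0.01, as was that of all genes tested. All 5 members of the TIP60 HAT module had a negative estimate, from -0.30 for Ing3 to -0.17 for Meaf6. Over all 32 members 16 estimates were positive and 16 negative, and the signs by module were not tested.

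With the mouse as a block, 2 members were called lower, Kat5 and Vps72, against 25.7% of all genes tested, 13.8% higher and 11.9% lower. Kat5 (ENSMUSG00000024926, chr19:5603014-5610237, minus strand) went from 88.5, 92.1, 99.5, 72.3 and 68.0 CPM in the untreated cultures of mice 19, 24, 26, 35 and 36 to 71.0, 66.9, 75.0, 67.2 and 66.1 CPM in their 4-OHT cultures. It was lower in 5 of 5 mice, by little in mice 35 and 36, and the groups overlapped (edgeR with the block, estimate -0.26 on the log2 scale with SE 0.0834, adjusted p = 0.0479). Without the block the estimate was -0.28 with an adjusted p of 0.109 in edgeR.

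Vps72 (ENSMUSG00000008958, chr3:95111022-95123051, plus strand) went from 126, 125, 132, 76.9 and 78.2 CPM to 80.3, 83.6, 99.5, 70.7 and 74.2 CPM. The untreated cultures of mice 19, 24 and 26 stood well above those of mice 35 and 36, and Vps72 was lower with 4-OHT in 5 of 5 mice (edgeR with the block, estimate -0.36 on the log2 scale with SE 0.1003, adjusted p = 0.0301). Without the block the adjusted p was 0.149 in edgeR.

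The lowest adjusted p without the block was that of Kat2a (ENSMUSG00000020918, chr11:100704746-100712465, minus strand), at 125, 124, 131, 128 and 114 CPM with 4-OHT and 110.4, 109.9, 103, 108 and 107 CPM without. The groups did not overlap, and the log2 fold change was 0.21 (edgeR, SE 0.0636 and adjusted p = 0.0518). Kat2a passed without the 4-OHT culture of mouse 36, at 0.25 (adjusted p = 0.0377 in edgeR). Without the untreated culture of mouse 36, Ing3 and Kat5 passed, both at -0.35 (adjusted p = 0.0421 and 0.0352 in edgeR), and without both cultures of mouse 36 no member did. Of the 21 further subunit genes none was called with 4-OHT in edgeR's test (3 at a p below 0.05 before adjustment), whereas DESeq2 called 2, Srcap and Yeats2, both higher. With the mouse as a block edgeR called 1 of these, Taf9b, lower in 5 of 5 mice (edgeR estimate -0.61 on the log2 scale with SE 0.129, adjusted p = 0.0113). With scaling by library size alone 3 of the 32 members were called, all higher (Atxn7, Ep400 and Kat2a), and the split over all genes moved from 1088 higher and 956 lower to 1396 higher and 712 lower. Usp22 had a log2 fold change of 0.19 and Morf4l2 of 0.13 with 4-OHT, neither called, and both were higher with 4-OHT in 5 of 5 mice.

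Fl/Fl 4-OHT and Fl/+ untreated cultures differ in both treatment and genotype. Here 11 members were called in edgeR's test, 3 higher and 8 lower, which is 34.4% of the members against 30.7% of the 15032 genes tested, 15.7% higher and 15.1% lower. The median log2 fold change was -0.07, beside 0.002 for all genes. Scaling by library size alone gave 5 higher and 5 lower members, while the split over all genes moved from 2357 higher and 2263 lower to 3150 higher and 1603 lower. Calls for 7 of the 11 held under each of the 18 alternatives tried, namely Usp22, Morf4l2, Mbtd1, Ing3 and Vps72, which were lower, and Kat2a and Kat2b, which were higher.

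Both SAGA acetyltransferase genes were higher in Fl/Fl 4-OHT than in Fl/+ untreated cultures. Kat2a was at 119.8 to 151 CPM in Fl/Fl and 103 to 110.4 CPM in Fl/+ untreated cultures (edgeR estimate 0.37 on the log2 scale with SE 0.078, adjusted p = 0.0046), and Kat2b was at 33.6 to 39.5 and 25.3 to 29.3 CPM (0.40, SE 0.0809, adjusted p = 0.00378 in edgeR). Neither gene overlapped between the groups. Usp22 and Morf4l2 were lower, with log2 fold changes of -0.67 and -0.68 (edgeR, SE 0.0978 and 0.0882, adjusted p = 0.000714 and 0.000359), and Mbtd1 with -0.58 (SE 0.0936, adjusted p = 0.00117 in edgeR). Vps72 had -0.60 (SE 0.160, adjusted p = 0.0151 in edgeR), with the Fl/Fl cultures at 64.1 to 74.4 CPM just under the untreated cultures of mice 35 and 36, at 76.9 and 78.2 CPM.

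In the TIP60 HAT module Ing3 was lower, at 22.8 to 28.5 CPM in Fl/Fl and 31.1 to 42.6 CPM in Fl/+ untreated cultures (edgeR estimate -0.48 on the log2 scale with SE 0.116, adjusted p = 0.00931), as was Epc1 (-0.36, SE 0.0978, adjusted p = 0.0178 in edgeR). Brd8 and Tada1 were lower, at -0.35 and -0.22, and Supt7l was higher, at 0.22. With scaling by library size alone the calls for Epc1 and Brd8 were lost, both at -0.26 (adjusted p = 0.0718 and 0.0799 in edgeR), and that for Brd8 was lost also without mouse 39 and mouse 36, at -0.32. The calls for Tada1 and Supt7l were lost on leaving out any of 8 libraries, Fl/Fl 27, 28, 29, 37 and 39 and Fl/+ untreated 35 and 36 for both, with Fl/+ untreated 26 for Tada1 (-0.24 to -0.20, adjusted p = 0.0558 to 0.0931 in edgeR) and Fl/+ untreated 19 for Supt7l (0.19 to 0.23, adjusted p = 0.0629 to 0.098 in edgeR).

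Without mouse 39 and mouse 36, 8 members were called, all among the 11, beside 26.6% of all genes tested. Epc2, at -0.30 (adjusted p = 0.0593 in edgeR), passed without the untreated culture of mouse 19, 35 or 36 (-0.35 to -0.34), and Atxn7, at 0.23 (adjusted p = 0.0686 in edgeR), passed without Fl/Fl mouse 37 (0.28). Taf6l, Dmap1, Yeats4, Mrgbp, Meaf6 and Ruvbl2, which were called after Trrap deletion, were not called here, with log2 fold changes of 0.17, 0.14, 0.07, 0.09, 0.06 and -0.11. Of the 21 further subunit genes tested, 2 were higher and 1 was lower (14.3%, against 30.7% of all genes tested), with the largest rise in Atxn7l1 (log2 fold change 0.60, adjusted p = 0.0385 in edgeR) and the fall in Actb (-0.99, adjusted p = 0.0011 in edgeR).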

How the data were processed

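RNA from 15 cultures, 3 groups of 5, was sequenced. The authors aligned reads with STAR 2.5.4b and deposited raw counts of uniquely mapped reads per Ensembl gene from featureCounts 1.5.0. Libraries held 25720034 to 32187097 counts. Of 53801 genes, 53706 matched GENCODE vM21 (GRCm38) and 95 did not. Counts were tested with edgeR 4.0.16 in R 4.3.3 (TMM scaling, filterByExpr at a minimum count of 10, quasi-likelihood F-test, Benjamini-Hochberg adjustment over all genes tested), each comparison being fitted on its own 10 libraries. DESeq2 1.42.0, other scalings and filters, 1 fit over all groups, labelled sex, the mouse as a block and leaving out each library served as alternatives. CPM are TMM-scaled, and TPM were computed from counts and exon union lengths. Paralog ratios are log2 of counts plus 0.5, tested by exact permutation in scipy 1.17.1.

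The 2 Fl/+ groups are paired by mouse. Over 15435 genes, deviations of cultures of the same mouse correlated at 0.156 to 0.626, and those of different mice at -0.55 to 0.34. On simulated data for the Trrap deletion comparison (15036 genes), the test recovered 15% of genes changed by 0.5 on the log2 scale. It recovered 63% of those changed by 1, with 4.88% of calls false. The simulation changed a small share of genes, drawn at random over all levels, whereas 31.7% were called in the data. Its rates therefore do not give the share of changed members found, since the members were all well counted.

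The members and lists were chosen with earlier results of these data known. Values by library are given for the 5 largest called rises and falls after Trrap deletion, for pairs whose ratio passed, and for the largest called rise and fall among further subunits. Kat2a, Kat5 and Vps72 with 4-OHT, Tada1, Kat2b, Meaf6, Ing3 and Usp27x were added after their values were seen. The dose of 4-OHT is not given, since the sources used here differ.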

Additional observations from a re-analysis of the deposited data

Results flagged for a closer look

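Of 96 sets of 5 cultures (32 members in 3 groups), 3 held a culture that stood apart from the other 4 by Dixon's ratio (critical value 0.71), where chance gives about 5%. Usp22 was at 198 CPM in Fl/Fl mouse 37, against 142 to 158 CPM in the other Fl/Fl cultures (ratio 0.718). Supt7l was at 52.9 CPM in Fl/Fl mouse 27, against 48.9 to 49.9 CPM (ratio 0.757). Atxn7 was at 48.4 CPM in the 4-OHT culture of Fl/+ mouse 24, against 38.1 to 41.0 CPM in the other cultures of that group (ratio 0.717).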

How the results depend on the processing

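The count of members called after Trrap deletion was 9 to 16 over all alternatives and 10 to 13 with 1 library left out, against 13, while 14.1% to 33.4% of all genes tested were called, and the count for deletion and 4-OHT together was 8 to 12 and 9 to 11, against 11, beside 14.6% to 35.0% of all genes. For 4-OHT alone, where no member was called, DESeq2 called 1 (16.6% of all genes), library-size scaling 3 (14.2%), a minimum of 10 counts in every library 1 (13.9%), labelled sex as covariate 2 (19.8%), and leaving out 1 library 0 to 2. The replicate block by mouse called 2 members with 4-OHT and changed no call for the paralog ratios, where it gave a difference of -0.01 for Morf4l1 to Morf4l2. Leaving out Fl/Fl 39 and both cultures of mouse 36 was chosen after seeing the data.

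With 1 library left out, the Morf4l1 to Morf4l2 ratio differed by 0.54 to 0.66 after Trrap deletion, by 0.53 to 0.62 for deletion and 4-OHT together, and by -0.084 to 0.043 with 4-OHT. Uncalled ratios changed sign, with 4-OHT from -0.0033 to 0.15 for Kat2a to Kat2b, -0.018 to 0.041 for Epc1 to Epc2 and -0.103 to 0.095 for Ruvbl1 to Ruvbl2, and from -0.092 to 0.050 for Kat2a to Kat2b for deletion and 4-OHT together. The cause was not tested. Standard errors of the members' log2 fold changes after Trrap deletion were 0.0646 to 0.127 (median 0.0851), which limits the smallest change that could be called with 5 cultures a group.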
